A study of Homo sapiens with 12 samples.

Results

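Cadherins are calcium-dependent adhesion proteins of the cell surface, and the 8 genes described here encode classical cadherins (CDH1, CDH2, CDH3, CDH5, CDH6 and CDH11) and atypical ones (CDH13 and CDH17). They were taken by gene name from the deposited count and TPM tables, 8 of 60624 genes listed. These 8 genes were selected on measured values, namely on differences between knockout and wild type libraries in these same tables. Their levels and differences are therefore given as a description, with no test. All 8 passed the filter on low counts in both experiments.

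A classical cadherin binds the same cadherin on a neighbouring cell through its extracellular repeats and holds catenins at its cytoplasmic tail, which tie the junction to actin. E-cadherin (CDH1) is the cadherin of epithelial adherens junctions, including those of the pancreas, and N-cadherin (CDH2) is shared by neural, mesenchymal and islet endocrine cells. CDH13 (T-cadherin) is held in the membrane by a lipid anchor and has no cytoplasmic tail, and CDH17 (liver-intestine cadherin) has a short tail that does not bind catenins.

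The data are bulk RNA-seq of human islet-like cells made from expandable pancreatic progenitors (ePP) of the embryonic stem cell line MEL1, taken at day 8 in the medium R6. The 4 groups had 3 libraries each: NKX2-2 knockout (KO), the wild type (WT) tabled beside it, CLEC16A KO, and a WT of its own. NKX2-2 is a homeodomain transcription factor of islet cells, and CLEC16A takes part in mitophagy. The labels name no edited clone and no separate cultures, so a line difference cannot be told apart from the knockout, and the spread behind each p-value is that of these libraries alone and may be technical. All 12 libraries share the R6 agents B27, BSA, zinc sulfate, heparin, 616452 (an inhibitor of the TGF-beta type I receptor), T3, LDN-193189 (a BMP receptor inhibitor), Compound E (a gamma-secretase inhibitor), vitamin C and forskolin.

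The NKX2-2 libraries held 16157481 to 20649976 counts each, and the CLEC16A libraries 31364272 to 33763795. NKX2-2 itself was at 76.1 ± 13.7 CPM (counts scaled to a common library size after TMM normalisation) in NKX2-2 KO and 95.2 ± 1.64 CPM in WT libraries (SD, n = 3 each), a log2 fold change of -0.32 (SE 0.12, edgeR adjusted p = 0.0610). CLEC16A was at 36.7 ± 1.34 CPM in CLEC16A KO and 32.3 ± 3.35 CPM in WT libraries, a log2 fold change of 0.18 (SE 0.09, edgeR adjusted p = 0.0949). For NKX2-2 every KO library was below every WT library in CPM and in TPM (34.6 ± 8.76 TPM in KO and 57.4 ± 3.17 TPM in WT libraries). In CPM, 45.5% of all genes tested there had groups that did not overlap. For CLEC16A the groups overlapped on both scales. Neither transcript passed the test or checks the labels, so KO and WT below mean libraries labelled so. The TPM of the listed genes add up to between 41.4% and 47.2% of the nominal total of TPM in the NKX2-2 libraries and to between 99.7% and 99.8% of it in the CLEC16A libraries. TPM levels are therefore compared within an experiment and not between them. The ratio of counts to TPM in the NKX2-2 against the CLEC16A tables, set to 1 for the median gene, was between 0.951 and 1.11 for 7 of the 8 cadherins. CDH5 was too low for this ratio.

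Compared per transcript length, CDH17 had the highest mean in each of the 4 groups, and CDH2 came next in 3 of them. In NKX2-2 KO libraries the order of mean TPM was CDH17 (45.6 ± 1.51), CDH2 (27.6 ± 1.95), CDH13 (7.84 ± 1.03), CDH6 (6.84 ± 0.633), CDH1 (6.07 ± 0.915), CDH3 (3.07 ± 0.370), CDH11 (2.51 ± 0.230) and CDH5 (SD, n = 3). The ranges of CDH13 and CDH6, of CDH6 and CDH1, and of CDH3 and CDH11 overlapped there. In their WT libraries the order was CDH17 (58.1 ± 4.23), CDH2 (24.4 ± 2.91), CDH1 (10.9 ± 1.70), CDH6 (5.67 ± 0.875), CDH3 (1.85 ± 0.226), CDH11 (1.58 ± 0.146), CDH13 (0.107 ± 0.0926) and CDH5, and CDH3 overlapped with CDH11, and CDH13 with CDH5. So CDH13 was at rank 3 in the KO libraries and at rank 7 in the WT libraries of that experiment.

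In CLEC16A KO libraries the order of mean TPM was CDH17 (333 ± 40.8), CDH1 (104 ± 12.1), CDH2 (31.1 ± 1.06), CDH6 (11.5 ± 1.55), CDH3 (2.84 ± 0.211), CDH11 (1.57 ± 0.483), CDH13 (0.302 ± 0.185) and CDH5, with overlap between CDH13 and CDH5 alone among neighbours (SD, n = 3). In CLEC16A WT libraries it was CDH17 (73.8 ± 2.996), CDH2 (56.4 ± 3.66), CDH1 (25.96 ± 0.930), CDH6 (22.7 ± 3.17), CDH3 (5.21 ± 1.72), CDH11 (1.70 ± 0.439), CDH13 (0.419 ± 0.111) and CDH5, with overlap between CDH1 and CDH6 alone among neighbours. CDH1 stood above CDH2 in each of the 3 CLEC16A KO libraries and below it in the other 9 libraries.

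The summed TPM of the 8 cadherins was 99.8 ± 6.08 in NKX2-2 KO and 103 ± 9.67 in NKX2-2 WT libraries, and 484 ± 50.3 in CLEC16A KO and 186 ± 8.16 in CLEC16A WT libraries. CDH17 took 45.8% ± 1.32 of this sum in NKX2-2 KO and 56.7% ± 1.43 in WT libraries, and 68.6% ± 1.28 in CLEC16A KO and 39.7% ± 2.80 in WT libraries. CDH13 took 7.84% ± 0.662 in NKX2-2 KO and 0.102% ± 0.0835 in WT libraries. CDH2 took 6.48% ± 0.851 in CLEC16A KO and 30.3% ± 1.18 in WT libraries. The makeup of the sum therefore differed in both experiments, while its size was nearly the same in both groups of the NKX2-2 experiment and 2.60 times as large in CLEC16A KO as in WT libraries.

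**Figure D1:**
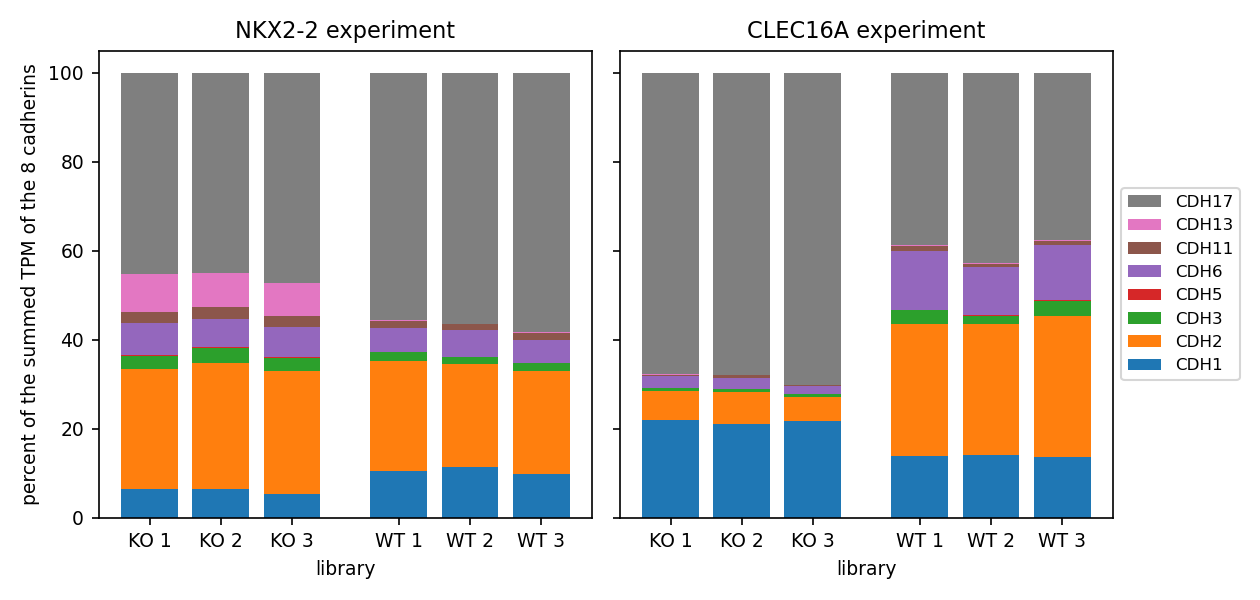
Share of each cadherin in the summed TPM of the 8 cadherins (y axis, percent), for each library (x axis, 3 KO then 3 WT) of the NKX2-2 (left) and CLEC16A (right) experiments. CDH17 takes 45.8% in NKX2-2 KO against 56.7% in WT libraries, and 68.6% in CLEC16A KO against 39.7% in WT libraries, while CDH13 is visible in the NKX2-2 KO libraries.

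On counts, the KO and WT libraries of the NKX2-2 experiment did not overlap for 7 of the 8 cadherins, of which 5 were higher and 2 lower in the KO libraries. Over all 17436 genes tested there, 45.5% did not overlap. The edgeR fit across all genes (adjusted p threshold of 0.05) called 4 of the 8 cadherins higher, against 16.6% of all genes, and 2 lower, against 16.8%, and in either direction 33.4% of all genes were called. Between CLEC16A KO and WT libraries, 4 of the 8 did not overlap (2 higher and 2 lower in the KO libraries), against 53.8% of 19958 genes. There the fit called 2 cadherins higher, against 23.7% of all genes, and 2 lower, against 21.3%, with 45.0% of all genes called in either direction. Since the 8 genes were chosen on these contrasts, nothing is read from these counts. As the samples are bulk RNA, fewer cells of a type and less RNA per cell cannot be told apart in any value below.

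**Figure D2:**
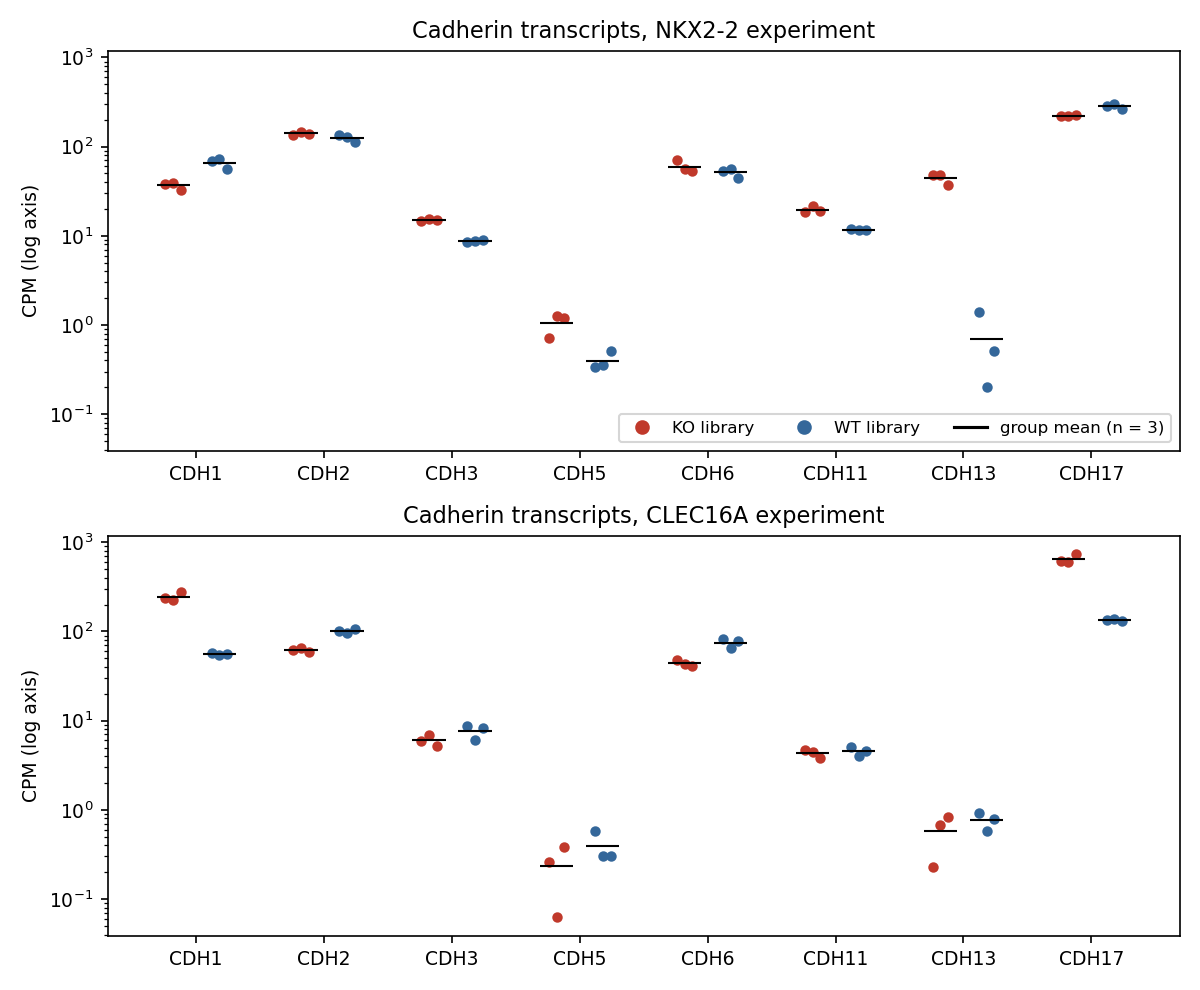
CPM of the 8 cadherins (y axis, log scale) in each library of the NKX2-2 (top) and CLEC16A (bottom) experiments, with KO libraries left of WT libraries and a line at each group mean of 3. CDH13 sits between 36.6 and 48.6 in the NKX2-2 KO libraries and between 0.202 and 1.39 in their WT libraries, and CDH1 and CDH17 are higher in all CLEC16A KO than in all their WT libraries.

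**Figure D3:**
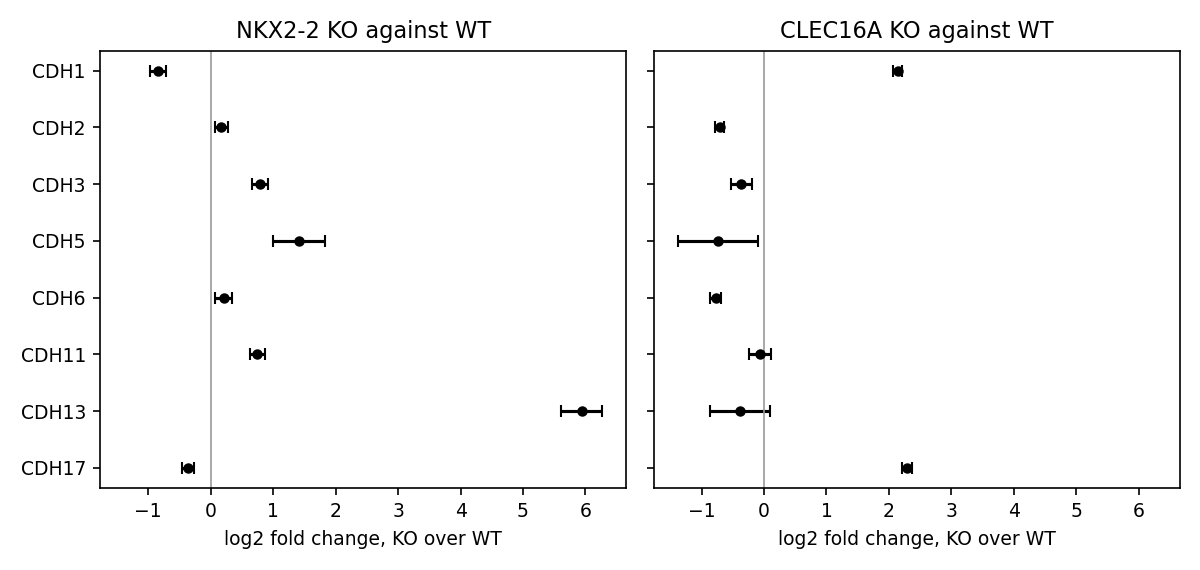
Log2 fold change of each cadherin, KO over WT (x axis), with bars for the SE of the edgeR fit, in the NKX2-2 (left) and CLEC16A (right) experiments. CDH1 is at -0.84 (NKX2-2) and 2.14 (CLEC16A), CDH17 at -0.36 and 2.29, and CDH13 at 5.94 and -0.38.

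CDH1 (ENSG00000039068, chromosome 16, 68737225 to 68835548, plus strand, GRCh38) had 38.5, 39.1 and 32.6 CPM in the NKX2-2 KO libraries, against 68.6, 73.0 and 56.2 CPM in the WT libraries. Every KO library was below every WT library. The log2 fold change was -0.84 (SE 0.13), or 1.79-fold lower in the KO libraries. For the CLEC16A knockout, CDH1 had 237, 223 and 274 CPM in KO libraries, against 56.8, 54.6 and 55.6 CPM in WT libraries. All 3 KO libraries were far above the WT libraries, which lay close together. The log2 fold change was 2.14 (SE 0.07), or 4.40-fold higher, and it stayed between 3.89-fold and 4.60-fold over all 15 alternative fits. In NKX2-2 KO libraries 6 of 8 epithelial markers tested were also lower and 2 did not pass, with the markers summing to between 949 and 1050 TPM in KO and between 1183 and 1347 TPM in WT libraries. In CLEC16A KO libraries all 8 were higher, with sums between 4737 and 4924 TPM in KO and between 2765 and 3041 TPM in WT libraries. None of these markers was at 0, and their part in the CDH1 difference was not tested.

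CDH2 (ENSG00000170558, chromosome 18, 27950966 to 28177446, minus strand) had 136.1, 147 and 138 CPM in the NKX2-2 KO libraries, against 135.3, 127 and 112 CPM in the WT libraries. The lowest KO library was barely above the highest WT library, and on the TPM scale the groups overlapped. The log2 fold change was 0.17 (SE 0.10). In the CLEC16A experiment CDH2 had 61.5, 65.9 and 59.0 CPM in KO libraries, against 102, 95.7 and 107 CPM in WT libraries. Here every KO library was below every WT library, with a log2 fold change of -0.71 (SE 0.07), or 1.63-fold lower.

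Set against each other in TPM, CDH1 over CDH2 was 0.237, 0.225 and 0.195 in the NKX2-2 KO libraries and 0.423, 0.488 and 0.424 in their WT libraries. Across the CLEC16A libraries, the ratio was 3.29, 2.91 and 3.91 in KO libraries and 0.468, 0.478 and 0.436 in WT libraries. The ratio is taken within a library, so the scaling of that library cancels. Both WT groups had ratios between 0.423 and 0.488, while the NKX2-2 KO libraries lay below and the CLEC16A KO libraries above that range.

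CDH3, or P-cadherin, is known from placenta and basal epithelia, and its gene lies 14608 bases before that of CDH1 on the same strand, with 0 protein-coding genes between them (chromosome 16, 68636189 to 68722616). It had 14.6, 15.6 and 15.1 CPM in the NKX2-2 KO libraries, against 8.60, 8.80 and 8.86 CPM in the WT libraries. All KO libraries were higher, and the spread within each group was small. The log2 fold change of CDH3 was 0.79 (SE 0.13) where that of its neighbour CDH1 was -0.84. On the CLEC16A side, it had 5.85, 6.89 and 5.26 CPM in KO libraries, against 8.72, 6.13 and 8.38 CPM in WT libraries. These groups overlapped, since WT replicate 2 lay among the KO libraries, and the log2 fold change was -0.37 (SE 0.17). In TPM the same libraries had 2.61, 3.02 and 2.89 in KO, against 6.01, 3.23 and 6.38 in WT, which do not overlap. CDH3 and CDH1 thus had log2 fold changes of opposite sign in both experiments.

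CDH6, a type II cadherin of the kidney, and CDH11, a type II cadherin of mesenchymal cells and osteoblasts, follow. CDH11 (chromosome 16, 64943753 to 65126112, minus strand) had 18.7, 21.3 and 18.9 CPM in NKX2-2 KO libraries, against 11.8, 11.6 and 11.7 CPM in WT libraries. All KO libraries were higher, with a log2 fold change of 0.75 (SE 0.12). Between CLEC16A KO and WT libraries, it had 4.69, 4.44 and 3.85 CPM in KO libraries, against 5.02, 3.98 and 4.59 CPM in WT libraries, which overlap. The log2 fold change of -0.07 (SE 0.18) turned to 0.01 without KO replicate 3 or without WT replicate 1. CDH6 (chromosome 5, 31193750 to 31329146, plus strand) had 70.3, 55.5 and 53.1 CPM in NKX2-2 KO libraries, against 53.6, 56.6 and 44.1 CPM in WT libraries. These groups overlapped, and the log2 fold change was 0.21 (SE 0.14). For the CLEC16A experiment the values of CDH6 were 47.6, 43.5 and 40.8 CPM in KO libraries, against 82.8, 64.8 and 77.8 CPM in WT libraries. Every KO library was lower there, with a log2 fold change of -0.77 (SE 0.09), or 1.71-fold lower.

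CDH5, or VE-cadherin, is the cadherin of endothelial junctions (chromosome 16, 66366622 to 66404786, plus strand), and it had at most 25 counts in any library. It had 12, 25 and 21 counts in the NKX2-2 KO libraries, against 7, 7 and 9 counts in the WT libraries. The KO libraries were higher in CPM without overlap. The ratio of counts scaled to library size was 2.71, with a 95% exact interval of 1.64 to 4.60 that covers counting error only. In the edgeR fit the log2 fold change of CDH5 was 1.42 (SE 0.41). For the CLEC16A knockout, CDH5 had 8, 2 and 12 counts in KO libraries, against 20, 10 and 10 counts in WT libraries. Their ratio was 0.530 (interval 0.300 to 0.914, again for counting error only). The CPM of these groups overlapped, with KO replicate 2 the lowest library. With the spread between libraries, the edgeR log2 fold change was -0.74 (SE 0.64). It lay between -1.29 and -0.29 over the alternative fits on counts. Of 10 endothelial markers, 8 passed the count filter in the NKX2-2 experiment, of which 4 were higher and 2 lower in KO libraries, and their sums overlapped, at 52.0 to 56.4 TPM in KO and 53.4 to 62.4 TPM in WT libraries. In the CLEC16A experiment 6 passed the filter, of which 1 was higher and 3 lower, with sums of 178 to 202 TPM in KO and 205 to 245 TPM in WT libraries. These sums rest mostly on EGFL7 and CLDN5. In the NKX2-2 experiment EGFL7 was at 20.7 TPM in KO and 48.0 TPM in WT libraries, and CLDN5 at 29.9 and 7.08 TPM. For the CLEC16A libraries, EGFL7 was at 181 TPM in KO and 206 TPM in WT libraries. CLDN5 had 0.391 times the counts per TPM in the NKX2-2 tables, relative to the median gene, so its level is uncertain. Over the 6 libraries of an experiment none of the 10 was at 0 counts, but in the CLEC16A experiment ERG had 2 counts in KO and 0 in WT libraries. The part of these markers in the CDH5 values was not tested.

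CDH13 (ENSG00000140945, chromosome 16, 82626803 to 83800640, plus strand), which binds adiponectin, had the widest difference of the 8. It had 803, 972 and 635 counts in the NKX2-2 KO libraries (48.3, 48.6 and 36.6 CPM), against 29, 4 and 9 counts in the WT libraries (1.39, 0.202 and 0.508 CPM). All KO libraries were far above all WT libraries, and among the WT libraries replicate 1 was the highest. The log2 fold change was 5.94 (SE 0.33), or 61.5-fold higher, at rank 6 from the top among 17436 genes. Scaled to library size, the ratio of 2410 counts in KO to 42 counts in WT libraries was 61.6, with a 95% exact interval of 45.4 to 85.7 for counting error only. Without WT replicate 1 it was 124-fold, since that library holds most of the WT counts, and the smallest value over the count fits was 44.7-fold. On the log2(TPM + 1) scale it was 7.97-fold and on the log2(TPM + 0.1) scale 40.6-fold, where the constant added exceeds the WT levels or comes near them.

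Across the CLEC16A libraries, CDH13 had 7, 22 and 26 counts in KO libraries, against 32, 19 and 26 counts in WT libraries. The groups overlapped, and the ratio was 0.689 (interval 0.478 to 0.986 for counting error only). With the spread between libraries, the edgeR log2 fold change was -0.38 (SE 0.48). It lay between -0.73 and -0.002 over the alternative fits on counts. CDH13 thus had at most 32 counts in 9 of the 12 libraries. The 10 mesenchymal markers moved beside CDH13 and CDH11 in the NKX2-2 experiment: all 10 were higher in KO libraries, and their TPM summed to between 1169 and 1351 in KO and between 414 and 486 in WT libraries. On the CLEC16A side, 8 of the 10 were lower in KO libraries and 2 did not pass, with sums of 20.1 to 23.8 TPM in KO and 75.1 to 79.3 TPM in WT libraries. Over the 6 libraries of an experiment none was at 0 counts. DCN, however, had 4 counts in all over the CLEC16A KO libraries, against 200 over their WT libraries. The part of these markers in the CDH13 and CDH11 differences was not tested.

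CDH17, on chromosome 8 (94127171 to 94217303, minus strand), is a cadherin of the intestinal epithelium. It had 221, 222 and 224 CPM in the NKX2-2 KO libraries, against 287, 301 and 266 CPM in the WT libraries. All KO libraries were lower and lay close together, with a log2 fold change of -0.36 (SE 0.10), or 1.28-fold lower. Between CLEC16A KO and WT libraries, it had 619, 608 and 743 CPM in KO libraries, against 134, 139 and 129.8 CPM in WT libraries. All KO libraries were far above the WT libraries, with a log2 fold change of 2.29 (SE 0.08), or 4.89-fold higher. Among 19958 genes this was rank 497 from the top, and CDH1 was at rank 575.

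Of the 10 intestinal markers, 9 passed the filter in the NKX2-2 experiment, of which 2 were higher and 5 lower in KO libraries, with sums of 841 to 858 TPM in KO and 1153 to 1297 TPM in WT libraries. The 2 higher were SI (3.92-fold) and TFF3 (2.22-fold). Those sums were mostly MUC13 (279 TPM in KO and 476 TPM in WT libraries) and APOA4 (275 and 483 TPM). For the CLEC16A knockout, all 10 were higher, with sums of 9593 to 11744 TPM in KO and 1028 to 1067 TPM in WT libraries. Most of these sums is APOA4 (7583 TPM in KO and 359 TPM in WT libraries) and MUC13 (2243 and 318 TPM). TFF3 rose 1.19-fold in CLEC16A KO libraries, with groups that overlapped in CPM. Liver markers, 8 in all, had 2 higher and 2 lower in NKX2-2 KO libraries, with overlapping sums of 5579 to 6421 TPM in KO and 5528 to 6477 TPM in WT libraries. In CLEC16A KO libraries 6 of the 8 were higher, with sums of 18149 to 20191 TPM in KO and 9465 to 9663 TPM in WT libraries. Over the 6 libraries of an experiment none of either list was at 0 counts. CDX1, however, had 6 counts in all and 0 TPM in the CLEC16A WT libraries, against 177 counts over the KO libraries. The part of these markers in the CDH17 difference was not tested.

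**Figure D4:**
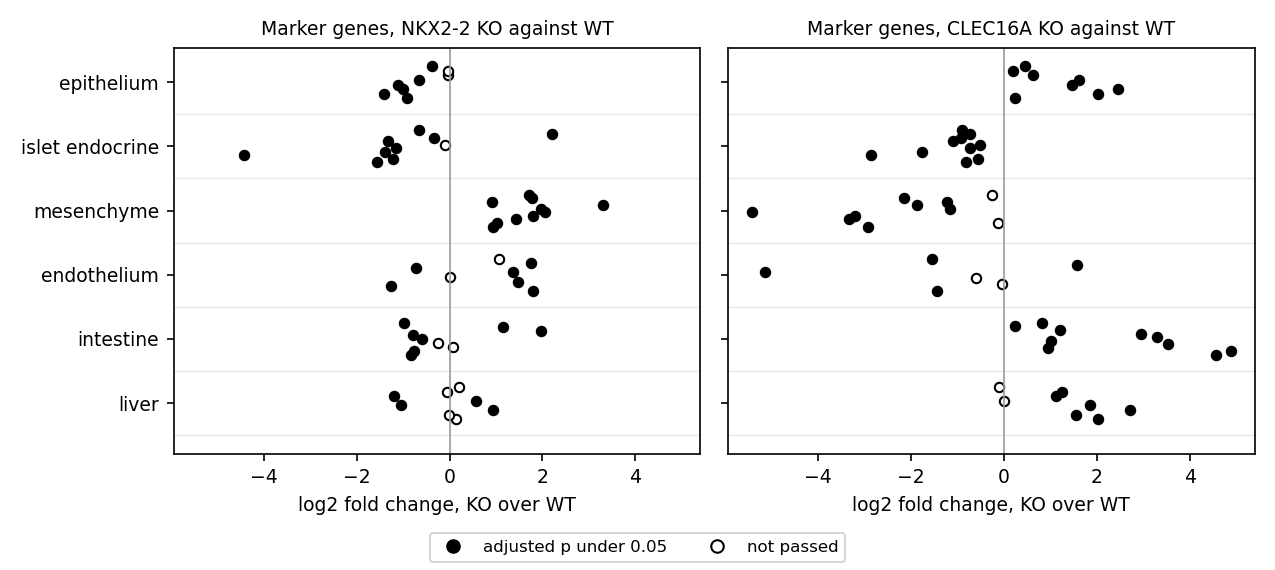
Log2 fold change, KO over WT (x axis), of each tested gene of 6 marker lists (y axis) in the NKX2-2 (left) and CLEC16A (right) experiments, filled where the edgeR adjusted p is under 0.05. Mesenchymal markers are higher in NKX2-2 KO libraries (10 of 10) and mostly lower in CLEC16A KO libraries (8 of 10), and intestinal markers are higher in CLEC16A KO libraries (10 of 10).

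Transcripts of islet cells, the cells the labels name, were present: none of 10 islet endocrine markers was at 0 counts. In the NKX2-2 experiment 1 of them was higher and 8 lower in KO libraries, with sums of 3188 to 3666 TPM in KO and 8454 to 10334 TPM in WT libraries. In the CLEC16A experiment all 10 were lower in KO libraries, with sums of 18414 to 21751 TPM in KO and 47740 to 54543 TPM in WT libraries. Most of these sums is CHGA (13627.5 TPM in CLEC16A KO and 26468 TPM in WT libraries) and INS (5291 and 18859 TPM). The NKX2-2 tables gave CHGA 0.0423 times and INS 2.05 times the counts per TPM of the CLEC16A tables, relative to the median gene. The levels of both are therefore uncertain. The 6 blood markers did not pass the count filter, HBG1 was at 0 counts in both experiments, and the TPM of the list summed to 3.04 to 5.63 in NKX2-2 KO and 37.5 to 40.6 in WT libraries, and to 97.3 to 130.0 in CLEC16A KO and 36.1 to 76.0 in WT libraries. Nearly all of that TPM was listed for CD68, which had 8 counts or fewer in each group. The gene lists of this report were tested gene by gene in the fit across all genes, and no list was tested as a whole.

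The genes whose levels followed those of CDH1, CDH13 and CDH17 most closely were found by Pearson's r over the 12 libraries, on log2 CPM centred within each experiment, among 12882 genes. This is a description: with 2 KO and 2 WT groups, r mostly reflects the group means, and the libraries share depth and processing. For CDH1 they included HEPH (r = 0.998), CDHR2 (0.998), CLIC5 (0.996) and TMCC3 (0.996), and 485 genes had an r of at least 0.95. For CDH17 they were CA12 (0.995), UNC93A (0.995), MMP14 (0.995), LAMB3 (0.995) and APOA4 (0.994), and 528 genes reached 0.95. CDH1 and CDH17 had an r of 0.971 with each other. For CDH13 they were SLC18A3 (0.977), CCDC80 (0.969), NT5E (0.969), COL1A2 (0.965) and HOTAIRM1 (0.964), and 23 genes reached 0.95.

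Partner genes were then examined, 92 genes in 10 lists that hold other cadherins, the catenins and linkers of adherens junctions, nectins, transcription factors that act on cadherin genes, and proteases that cut cadherins. In the NKX2-2 experiment 83 passed the count filter, of which 19 rose (22.9%, against 16.6% of all genes), 25 fell (30.1%, against 16.8%) and 39 did not pass. Their median log2 fold change was -0.06, against 0.03 over all genes. Across the CLEC16A libraries, 86 passed the filter, of which 31 rose (36.0%, against 23.7%), 29 fell (33.7%, against 21.3%) and 26 did not pass, with a median of -0.11, against -0.01 over all genes. By limma on log2(TPM + 1), 10 rose and 17 fell in the NKX2-2 experiment, and 22 rose and 21 fell in the CLEC16A experiment. In the same fit 39.3% of all calls of the CLEC16A experiment were higher, against 52.7% in the edgeR fit, and the log2 fold change of the median gene shifted by -0.13. With upper-quartile scaling of the counts, 58.4% of all calls were higher in the NKX2-2 experiment, against 49.6% in the edgeR fit with TMM, and 43.2% in the CLEC16A experiment. No difference between the experiments was tested, here or below.

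**Figure D5:**
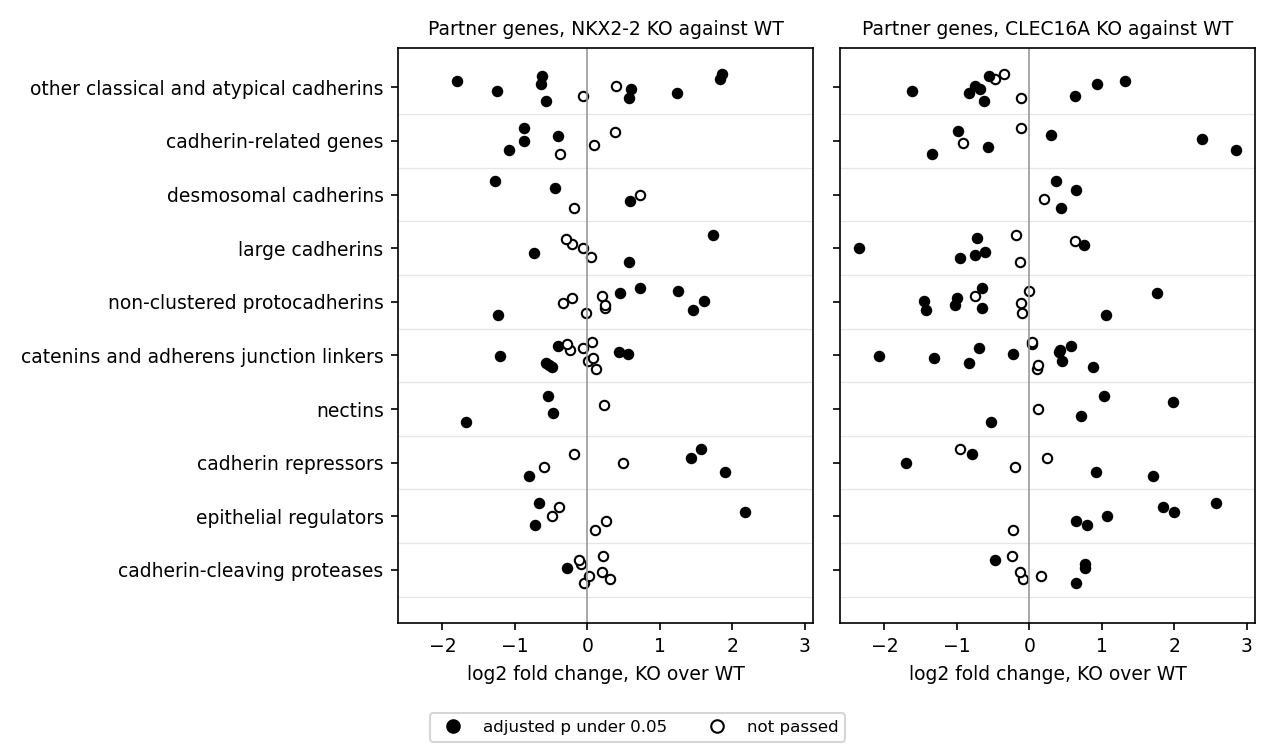
Log2 fold change, KO over WT (x axis), of each tested gene of the 10 partner lists (y axis) in the NKX2-2 (left) and CLEC16A (right) experiments, filled where the edgeR adjusted p is under 0.05. Epithelial regulators lie to the right in the CLEC16A experiment, where 6 of 7 rose, and the list of cadherin-related genes holds the highest value there, CDHR2 at 2.85.

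Among 12 tested genes of 15 other classical and atypical cadherins, 5 rose and 5 fell in the NKX2-2 experiment (median 0.17). CDH9, a type II cadherin, was at 40.6 ± 4.77 CPM in KO and 11.2 ± 1.09 CPM in WT libraries, a log2 fold change of 1.86 (SE 0.13, edgeR adjusted p = 3.5e-07). CDH18 rose as well, by 1.24 on the log2 scale (SE 0.12, edgeR adjusted p = 4.02e-06). CDH4, or R-cadherin, fell with a log2 fold change of -1.80 (SE 0.27, edgeR adjusted p = 0.000218), and CDH22 with one of -1.25 (SE 0.19, edgeR adjusted p = 0.000225). CDH4 had 0.560 times the counts per TPM there that it has in the CLEC16A tables, relative to the median gene, so its counts are uncertain. By limma on log2(TPM + 1), 3 of the 12 rose.

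On the CLEC16A side, 3 of 12 rose and 6 fell (median -0.51). CDH4 was at 39.4 ± 1.58 CPM in KO and 15.8 ± 0.522 CPM in WT libraries, a log2 fold change of 1.32 (SE 0.09, edgeR adjusted p = 2.89e-11), and CDH26 rose with one of 0.93 (SE 0.10, edgeR adjusted p = 8.47e-08). CDH22 fell here too, with a log2 fold change of -1.62 (SE 0.15, edgeR adjusted p = 6.33e-09), as did CDH10 with one of -0.63 (SE 0.10, edgeR adjusted p = 1.04e-05). CDH10 and CDH8 were also called lower in both experiments, and CDH8 is named here after its values were seen.

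The cadherin-related genes include the protocadherins of the intestinal brush border, CDHR2 and CDHR5, which link microvilli at their tips, and the calsyntenins. In the NKX2-2 experiment 4 of 7 tested genes fell and the other 3 did not pass, and 1 gene rose without KO replicate 3 or WT replicate 1. CDHR2 was at 8.60 ± 1.41 CPM in KO and 18.2 ± 2.51 CPM in WT libraries, a log2 fold change of -1.08 (SE 0.16, edgeR adjusted p = 0.000165), and CDHR5 and CLSTN3 each had one of -0.87 (edgeR adjusted p = 0.000484 and 0.000118). CLSTN1 fell by 0.40 on the log2 scale (edgeR adjusted p = 0.0414), a call lost without KO replicate 2 or 3 or WT replicate 1 or 2 (adjusted p from 0.106 to 0.161), with upper-quartile scaling (0.0704) and by limma on log2(TPM + 1) (0.0715). Between CLEC16A KO and WT libraries, 3 of 8 rose and 3 fell. CDHR2 was at 81.9 ± 4.71 CPM in KO and 11.4 ± 0.641 CPM in WT libraries, a log2 fold change of 2.85 (SE 0.09, edgeR adjusted p = 3.18e-17), and CDHR5 was at 504 ± 33.3 CPM in KO and 96.5 ± 3.46 CPM in WT libraries, one of 2.38 (SE 0.07, edgeR adjusted p = 1.55e-17). CLSTN2 and CDHR3 fell, with log2 fold changes of -0.99 and -0.57 (edgeR adjusted p = 1.52e-06 and 0.000164). CDHR2 shares exon positions with GPRIN1 on the other strand, and CDHR5 had 0.538 times the counts per TPM in the NKX2-2 tables, so both are less certain.

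Of 5 desmosomal cadherins tested in the NKX2-2 experiment, which anchor junctions to keratins, 1 rose and 2 fell. DSG4 had a log2 fold change of -1.27 (SE 0.16, edgeR adjusted p = 3.54e-05), DSG2 of -0.45 (edgeR adjusted p = 0.0217) and DSC3 of 0.59 (edgeR adjusted p = 0.0144). The DSG2 call was lost without WT replicate 1 or 2 (adjusted p = 0.0949 and 0.0791), and that of DSC3 without KO replicate 1 or WT replicate 2 (adjusted p = 0.0709 and 0.0583). Both were also lost by limma on log2(TPM + 1) (adjusted p = 0.0624 for DSG2 and 0.0504 for DSC3). For the CLEC16A knockout, 3 of 4 rose and the other 1 did not pass. DSG2 was at 403 ± 53.1 CPM in KO and 259 ± 5.78 CPM in WT libraries, a log2 fold change of 0.64 (SE 0.08, edgeR adjusted p = 4.38e-07), and DSC2 had one of 0.44 (SE 0.07, edgeR adjusted p = 4.42e-05). DSG4 rose by 0.37 on that scale (edgeR adjusted p = 0.0414), a call lost without any one of 5 of the 6 libraries, all but KO replicate 2 (adjusted p from 0.0720 to 0.301), with DESeq2 (0.0656) and with upper-quartile scaling (0.0991). By limma on log2(TPM + 1), 1 of these genes rose, and the calls of DSG4 and DSC2 were lost (adjusted p = 0.477 and 0.0785).

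Among the large cadherins, FAT4, a planar polarity cadherin, rose in NKX2-2 KO libraries by 1.73 on the log2 scale (SE 0.25, edgeR adjusted p = 0.000123), at 15.9 ± 3.53 CPM in KO and 4.75 ± 1.87 CPM in WT libraries. CELSR1 rose by 0.57 (edgeR adjusted p = 0.0167) and CELSR3 fell by 0.74 (edgeR adjusted p = 0.0156) on the log2 scale. The CELSR1 call was lost without KO replicate 1 or WT replicate 1 or 3 (adjusted p from 0.0537 to 0.0757), and that of CELSR3 without KO replicate 2 or WT replicate 1 or 2 (adjusted p from 0.0549 to 0.0679), and the other 4 of 7 tested did not pass. The calls of CELSR1 and CELSR3 were lost too by limma on log2(TPM + 1) (adjusted p = 0.0723 and 0.0575). In the CLEC16A experiment 1 of 9 rose and 5 fell. FAT1 rose by 0.75 on the log2 scale (SE 0.06, edgeR adjusted p = 1.57e-09), and CELSR2, CELSR3 and DCHS1 fell with ones of -0.95, -0.74 and -0.62 (edgeR adjusted p = 2.58e-10, 3.76e-09 and 2.8e-06). Without WT replicate 2, 2 genes rose, and by limma on log2(TPM + 1), 3 fell.

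Protocadherins that lie outside the gene clusters, 12 tested in each experiment, had 5 that rose and 1 that fell in the NKX2-2 experiment, and 2 that rose and 6 that fell in the CLEC16A experiment. PCDH18 was at 130.3 ± 20.1 CPM in NKX2-2 KO and 42.8 ± 4.53 CPM in WT libraries, a log2 fold change of 1.61 (SE 0.13, edgeR adjusted p = 1.08e-06), and at 4.82 ± 0.428 CPM in CLEC16A KO and 13.2 ± 1.59 CPM in WT libraries, one of -1.45 (SE 0.15, edgeR adjusted p = 2.84e-08). PCDH1, found in epithelia, fell by 1.23 on that scale in NKX2-2 KO (edgeR adjusted p = 5.9e-05) and rose by 1.06 in CLEC16A KO libraries (edgeR adjusted p = 6.53e-07). PCDH11X, whose near-identical copy on the Y chromosome could share its reads, rose by 1.46 in NKX2-2 KO (edgeR adjusted p = 0.00378) and fell by 1.43 in CLEC16A KO libraries (edgeR adjusted p = 0.000273). PCDH9 rose by 0.73 in NKX2-2 KO (edgeR adjusted p = 0.000231), and PCDH7 by 1.75 in CLEC16A KO libraries (edgeR adjusted p = 1.06e-14). In the NKX2-2 experiment 3 rose and 2 fell without KO replicate 2, and 2 fell without WT replicate 3. By limma on log2(TPM + 1), 2 rose there, and 3 fell in the CLEC16A experiment.

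The catenins and linkers hold classical cadherins to actin. Beta-catenin (CTNNB1) was at 583 ± 73.4 CPM in NKX2-2 KO and 429.7 ± 10.7 CPM in WT libraries, a log2 fold change of 0.44 (SE 0.11, edgeR adjusted p = 0.00963), and its call was lost without KO replicate 2 or WT replicate 2 (adjusted p = 0.0544 and 0.0534). Alpha-catenin (CTNNA1) was at 345 ± 1.45 CPM in KO and 343 ± 17.1 CPM in WT libraries (edgeR adjusted p = 0.956). Plakoglobin (JUP), a catenin of desmosomes, fell by 0.41 on the log2 scale (edgeR adjusted p = 0.0353), a call lost without KO replicate 2 or 3 or WT replicate 1 or 2 (adjusted p from 0.0955 to 0.121), with upper-quartile scaling (0.0645) and by limma on log2(TPM + 1) (0.0738). CTNNAL1 rose by 0.56 (edgeR adjusted p = 0.00397), and CTNNA3, ARVCF and ACTN4 fell by 1.20, 0.57 and 0.48 (edgeR adjusted p = 0.00257, 0.00145 and 0.00690). In all, 2 of 14 rose and 5 fell, and without KO replicate 2 or WT replicate 2 it was 1 that rose. It was 2 that fell by limma on log2(TPM + 1).

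Across the CLEC16A libraries, 5 of the 14 rose and 5 fell. CTNNB1 was at 412 ± 10.9 CPM in KO and 311 ± 4.82 CPM in WT libraries, a log2 fold change of 0.41 (SE 0.06, edgeR adjusted p = 5.71e-06). CTNNA1 was at 380.5 ± 15.0 CPM in KO and 279 ± 2.95 CPM in WT libraries, one of 0.45 (SE 0.06, edgeR adjusted p = 1.94e-06), and JUP had one of 0.57 (SE 0.07, edgeR adjusted p = 1.74e-07). ACTN4, an actinin that links actin filaments, rose by 0.88 (edgeR adjusted p = 2.3e-10). CTNNA2, the alpha-catenin of neurons, fell by 1.32 and ARVCF by 0.84 (edgeR adjusted p = 1.19e-09 and 5.19e-10). Catenin p120 (CTNND1) had a log2 fold change of -0.25 in NKX2-2 KO (edgeR adjusted p = 0.202) and 0.42 in CLEC16A KO libraries (edgeR adjusted p = 0.0024), but the read-through gene TMX2-CTNND1 covers its exons on the same strand, so its counts are uncertain. ACTN4 shares exon positions with CAPN12 on the other strand, and the counts of ARVCF are less certain.

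Nectins start junctions beside cadherins, and PVR was listed with them. Of this list, 3 of 4 tested genes fell in the NKX2-2 experiment (and 1 rose without KO replicate 1). In the CLEC16A experiment 3 of 5 rose and 1 fell. NECTIN1 was at 45.5 ± 6.22 CPM in NKX2-2 KO and 144 ± 23.8 CPM in WT libraries, a log2 fold change of -1.67 (SE 0.14, edgeR adjusted p = 1.5e-06), and fell by 0.53 in CLEC16A KO libraries (edgeR adjusted p = 3.25e-07). NECTIN2 fell by 0.47 in NKX2-2 KO (edgeR adjusted p = 0.00215) and rose by 0.71 in CLEC16A KO libraries (edgeR adjusted p = 1.43e-09). PVR fell by 0.54 in NKX2-2 KO (edgeR adjusted p = 0.00613) and rose by 1.03 in CLEC16A KO libraries (edgeR adjusted p = 1.68e-10), and overlaps CEACAM19 on the same strand. NECTIN4 rose by 1.97 in CLEC16A KO libraries, with counts of 138 in KO and 37 in WT libraries (edgeR adjusted p = 0.00132).

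Of the 7 repressors that can bind the CDH1 promoter or act beside such factors, 3 rose and 1 fell in the NKX2-2 experiment. ZEB2 was at 86.6 ± 10.8 CPM in KO and 29.1 ± 4.70 CPM in WT libraries, a log2 fold change of 1.57 (SE 0.14, edgeR adjusted p = 2.1e-06). SNAI2, or Slug, had one of 1.90 (SE 0.19, edgeR adjusted p = 7.53e-06) and TWIST2 one of 1.43 (SE 0.19, edgeR adjusted p = 6.08e-05). SNAI1, or Snail, fell by 0.80 (edgeR adjusted p = 0.0438), at 1.65 ± 0.582 CPM in KO and 2.84 ± 0.300 CPM in WT libraries, and this call was lost without any one library other than KO replicate 1 (adjusted p from 0.0626 to 0.176), with DESeq2 (0.0830), with upper-quartile scaling (0.0598) and by limma on log2(TPM + 1) with no filter (0.106). The mesenchymal markers above were higher in the same KO libraries.

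On the CLEC16A side, where CDH1 was higher in KO libraries, 2 repressors rose and 2 fell. SNAI1 was at 9.72 ± 0.533 CPM in KO and 2.98 ± 0.883 CPM in WT libraries, a log2 fold change of 1.71 (SE 0.19, edgeR adjusted p = 1.31e-07). SNAI2 rose by 0.91 (edgeR adjusted p = 0.0118), a call lost without KO replicate 3 (adjusted p = 0.0889) and by limma on log2(TPM + 1) (0.114), which leaves 1 that rose. ZEB1 was at 23.4 ± 1.66 CPM in KO and 40.5 ± 3.33 CPM in WT libraries, a log2 fold change of -0.79 (SE 0.09, edgeR adjusted p = 1.64e-07). TWIST1 fell by 1.70 (edgeR adjusted p = 0.00369), at 0.517 ± 0.328 CPM in KO and 1.69 ± 0.677 CPM in WT libraries. The repressors thus changed in both directions.

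The epithelial regulators are transcription factors (GRHL and OVOL genes) and splicing factors (ESRP genes) of epithelial cells. Between CLEC16A KO and WT libraries, 6 of 7 rose and the other 1 did not pass. OVOL2 was at 8.56 ± 0.664 CPM in KO and 1.43 ± 0.313 CPM in WT libraries, a log2 fold change of 2.57 (SE 0.20, edgeR adjusted p = 3.07e-10). OVOL1 rose by 1.84 (edgeR adjusted p = 3.24e-07), ESRP2 by 0.80 (edgeR adjusted p = 5.06e-08) and GRHL1 by 0.64 (edgeR adjusted p = 0.000384). By limma on log2(TPM + 1), 3 of them rose, and the call of GRHL1 was lost (adjusted p = 0.0524). ESRP2 shares exon positions with NFATC3 on the other strand. OVOL2 overlaps SNX5 on the same strand, and SNX5 had far more counts, so OVOL2 is uncertain.

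In the NKX2-2 experiment 1 epithelial regulator rose and 2 fell. GRHL3 was at 2.04 ± 0.312 CPM in KO and 0.446 ± 0.0121 CPM in WT libraries, a log2 fold change of 2.18 (SE 0.33, edgeR adjusted p = 0.000212), a call absent by limma on log2(TPM + 1) with the filter of 1 TPM. ESRP2 was at 26.8 ± 4.06 CPM in KO and 44.1 ± 3.75 CPM in WT libraries, one of -0.72 (SE 0.13, edgeR adjusted p = 0.000989). OVOL2 fell by 0.67 (edgeR adjusted p = 0.0247), a call lost without KO replicate 1 or WT replicate 2 (adjusted p = 0.0548 and 0.111), and with DESeq2 (0.050008), which leaves 1 that fell.

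The last list holds ADAM proteases that shed cadherin ectodomains and subunits of gamma-secretase, the enzyme that Compound E inhibits. In the NKX2-2 experiment 7 of 8 did not pass (1 rose without WT replicate 3), and NCSTN (nicastrin), whose exons COPA overlaps on the other strand, fell by 0.28 on the log2 scale (edgeR adjusted p = 0.0445), a call lost without KO replicate 2 or 3 or WT replicate 1 or 2 (adjusted p from 0.121 to 0.141), with upper-quartile scaling (0.105) and by limma on log2(TPM + 1) (0.0857). For the CLEC16A knockout, 3 rose and 1 fell. ADAM10 was at 243 ± 21.4 CPM in KO and 155 ± 1.75 CPM in WT libraries, a log2 fold change of 0.65 (SE 0.07, edgeR adjusted p = 4.12e-08). NCSTN rose by 0.76 (edgeR adjusted p = 3.13e-08), and PSEN2 fell by 0.47 (edgeR adjusted p = 0.00217).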

How the data were processed

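The raw counts and the TPM, per Ensembl gene and separately for each experiment, were deposited by the authors. The tools HISAT2 2.2.1, StringTie 2.1.7 and fastp 0.22.0 and the build hg38 are named per the submitters' processing notes. Counting program, annotation release and strandedness: not given in the sources used here. Reads of overlapping genes therefore cannot be told apart. Positions are those of GENCODE 29 (GRCh38), matched by Ensembl ID. Another 45 rows, pseudoautosomal genes listed again for Y, were not used.

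Counts were fitted within each experiment with edgeR 4.0.16 in R 4.3.3 (robust quasi-likelihood F test after TMM scaling and filterByExpr), with Benjamini-Hochberg adjustment over all genes and a threshold of 0.05. The SE was taken as the size of the log2 fold change divided by the root of F, and fits were tested on simulated counts. Alternatives were RLE and upper-quartile scaling, DESeq2 1.42.0, no count filter, a filter of 1 CPM in 3 libraries, a replicate block, limma 3.58.1 on log2(TPM + 1), on log2(TPM + 0.1) and without a filter of 1 TPM, and leaving out each library.

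The cadherins and the lists of partner and marker genes were chosen with earlier results of these data known. Named partner genes are up to 4 per list and experiment, those with the smallest p among the called, and CTNNB1, CTNNA1, CTNND1 and JUP. Genes most like a cadherin are the 5 with the highest r, among genes tested in both experiments with a mean of at least 5 CPM in 1 group. Some genes that these rules name are not reported here. Every pair of replicates differed beyond sampling noise (chi-square per degree of freedom of 3.70 or more).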

Additional observations from a re-analysis of the deposited data

Results flagged for a closer look

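For 24 of the cadherins and named partner genes, KO and WT libraries did not overlap in CPM in either experiment. All NKX2-2 KO libraries lay on one side of their WT libraries, and all CLEC16A KO libraries on the other side of theirs. The cadherins were chosen on these contrasts and the named partner genes mainly by smallest p, which favours groups without overlap. Over all genes tested, 45.5% did not overlap between NKX2-2 KO and WT libraries, and 53.8% between CLEC16A KO and WT libraries. The share of all genes that lay on opposite sides was not counted, so nothing is read from the number 24. The difference between both knockout effects was not tested for any of the 24 genes. It is given here as the log2 fold change in NKX2-2 KO minus that in CLEC16A KO libraries, each against its own WT. Among the cadherins described, it was -2.98 for CDH1, 0.88 for CDH2 and -2.65 for CDH17. For CDH2 the lowest NKX2-2 KO library was barely above the highest WT library, and on the TPM scale those groups overlapped.

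Other cadherins and related genes had -3.12 for CDH4, 2.07 for CDH18, -1.57 for CDH26, -3.93 for CDHR2, -3.26 for CDHR5 and -0.63 for DSC2. Protocadherins had -2.29 for PCDH1, 1.38 for PCDH9, 2.89 for PCDH11X and 3.06 for PCDH18. Catenins, linkers, nectins and PVR had -0.67 for CTNND1, 0.79 for CTNNAL1, -1.36 for ACTN4, -1.18 for NECTIN2 and -1.57 for PVR. Among the regulators and proteases it was -2.51 for SNAI1, 2.53 for ZEB2, 2.19 for TWIST1, -3.24 for OVOL2, -1.52 for ESRP2 and -1.04 for NCSTN. Of these genes, DSC2, CTNND1 and TWIST1 did not pass the test in the NKX2-2 experiment (edgeR adjusted p = 0.141, 0.202 and 0.133), nor did ZEB2 in the CLEC16A experiment (edgeR adjusted p = 0.0795). For CTNND1 the TPM of the NKX2-2 KO and WT libraries overlapped.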

How the results depend on the processing

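Each fit was repeated under 15 alternatives per experiment, and none turned round the direction of a cadherin whose groups did not overlap or of a called and named partner gene. The counts of called genes over all partner genes and over all genes moved by more than 1.5 times with limma on TPM and under no other alternative, while those of single lists of few genes moved more often (70 of their values for NKX2-2 and 17 for CLEC16A). On log2(TPM + 1), log2(TPM + 0.1) and log2(TPM + 1) with no filter, 10, 10 and 12 partner genes rose in the NKX2-2 experiment (19 in the edgeR fit), and 3047, 2986 and 2841 genes of all rose in the CLEC16A experiment (4732 in the edgeR fit). With no filter, 13 partner genes fell in the NKX2-2 experiment (25 in the edgeR fit), and of all genes 1624 rose and 1623 fell (2888 and 2936 in the edgeR fit). The cause was not tested. Leaving out 1 library gave 16 to 21 partner genes that rose and 18 to 26 that fell in the NKX2-2 experiment, and 28 to 33 and 26 to 29 in the CLEC16A experiment. Same-numbered libraries correlated in their deviations with r of 0.109, 0.0254 and 0.321 in the NKX2-2 and 0.0115, 0.0108 and -0.0302 in the CLEC16A experiment. Replicate numbers thus gave no sign of pairing in the CLEC16A libraries, while a pairing of the NKX2-2 libraries was left unsettled. With a replicate block, 23 partner genes rose and 29 fell in the NKX2-2 experiment, and 31 rose and 28 fell in the CLEC16A experiment. Of all genes, 4077 rose and 3960 fell with the block in the NKX2-2 experiment (2888 and 2936 in the edgeR fit). For the named partner genes of the NKX2-2 experiment, the outcome stayed the same in 483 repeats and a call was lost in 64. These 483 include repeats of CTNNA1 and CTNND1, which were not called there to begin with. In the CLEC16A experiment calls of named partner genes were kept in 604 repeats and lost in 22. With limma on log2(TPM + 1) and no filter, the calls of PCDH11X (both experiments), CTNNA3, ARVCF, ACTN4 and PVR (NKX2-2) and NECTIN4 (CLEC16A) were lost as well (adjusted p from 0.0539 to 0.336). Low counts limit CDH5, and CDH13 outside the NKX2-2 KO libraries.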
